A study of Homo sapiens with 12 samples.

Results

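The genes described here are the 251 expressed ZNF genes of 2 Ewing sarcoma cell lines, A673 and TC32, treated with the CDK12 and CDK13 inhibitor THZ531. A gene was a member when its symbol was ZNF followed by digits and an optional letter and when its mean log2 value over the 4 DMSO arrays was at least 6.5. Of 16913 genes kept in the array table, 454 had such a symbol, and 251 of these reached the level while 203 did not. On chromosome 19 lay 111 members, and the other 140 were spread over the genome, with 20 on chromosome 16, 15 on chromosome 7 and 14 on chromosome 1. The level was the only measured value that chose the members, so their DMSO values are given as a description. Just inside the level were ZNF611, ZNF70 and ZNF517, with DMSO means of 6.5, 6.51 and 6.51. Just outside it were ZNF57, ZNF211 and ZNF709, at 6.48, 6.47 and 6.46.

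Each line was exposed for 6 hours to DMSO, to 100 nM THZ531 or to 500 nM THZ531, which gave 6 groups of 2 arrays, 12 in all, described as biological replicates in the labels. THZ531 is named THZ_5_31_1 in the sample titles. Both lines come from Ewing sarcoma, a tumour of bone and soft tissue whose driver is the fusion protein EWS/FLI. Each line stands for 1 tumour, no untreated culture without solvent was analysed here, and the 100 nM dose that the labels of the DMSO samples carry was disregarded. Of 8 marker genes of Ewing sarcoma, 7 were measured, with DMSO means between 8.69 (LIPI) and 13.53 (CD99). Of 12 markers of other cell types, the means ran between 3.68 (PTPRC, a leukocyte gene) and 7.45 (MUC1). CD79A (7.10), SNAP25 (6.86), HBB (6.70) and GFAP (6.65) also lay above 6.5, so reaching that level does not by itself show expression.

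Most ZNF symbols belong to proteins with C2H2 zinc fingers, in which arrays of finger domains read DNA sequence. The largest class carries a KRAB domain, which binds TRIM28 and through it the histone methyltransferase SETDB1, and silences chromatin at transposable elements and imprinted loci. Many of these genes arose by tandem duplication and stand in clusters on chromosome 19. Other ZNF proteins lack the KRAB domain and act as activators at promoters, as corepressor subunits, or outside DNA binding in ribosome assembly and at the spindle. CDK12 and CDK13 phosphorylate RNA polymerase II during elongation. Because many ZNF genes are close paralogues, probes for 1 member may also bind transcripts of another, which was not tested. The 7 ZNF genes whose values were identical to those of another symbol were left out.

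All values are log2 signals. Differences were tested with limma in 1 model over the 12 arrays, with adjusted p under 0.05 over the 10148 genes whose mean over all arrays reached 5.94, and 227 of the 251 members were among them. They are given on 2 scales. The first is the values as deposited, on which whole arrays differed: their medians over the kept genes fell by 0.83 (A673) and 0.79 (TC32) between the 500 nM and the DMSO arrays, and by 0.62 and 0.21 between the 100 nM and the DMSO arrays. The second, called relative, sets each array's median to the same level and shows how a gene moved against the other genes. Adjusted p-values of single genes are those of the relative scale unless stated, because whole arrays are offset against each other on the deposited scale. Fewer cells, less RNA per cell and a technical offset of whole arrays cannot be told apart in such bulk samples. The second A673 array at 500 nM differed from the first by a median of -0.52 over the tested genes.

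Under DMSO the members were of moderate level. In A673 their medians were 8.06 and 8.03 under DMSO, 7.09 and 7.0 under 100 nM and 6.5 and 6.02 under 500 nM. In TC32 they were 7.28 and 7.17 under DMSO, 6.64 and 6.62 under 100 nM and 5.41 and 5.26 under 500 nM. In each line the 3 groups did not overlap and the order followed the dose. All 9357 kept genes at the same DMSO level, the members among them, had medians of 9.06 and 8.97, 8.35 and 8.32, and 8.17 and 7.63 in the same order in A673. At 500 nM, 74 and 113 of the 251 members lay below 5.94 on the A673 arrays and 175 and 174 on the TC32 arrays, against 1 and 2 on the A673 DMSO arrays and 3 on each TC32 DMSO array. A change that ends below that value may be understated.

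**Figure D1:**
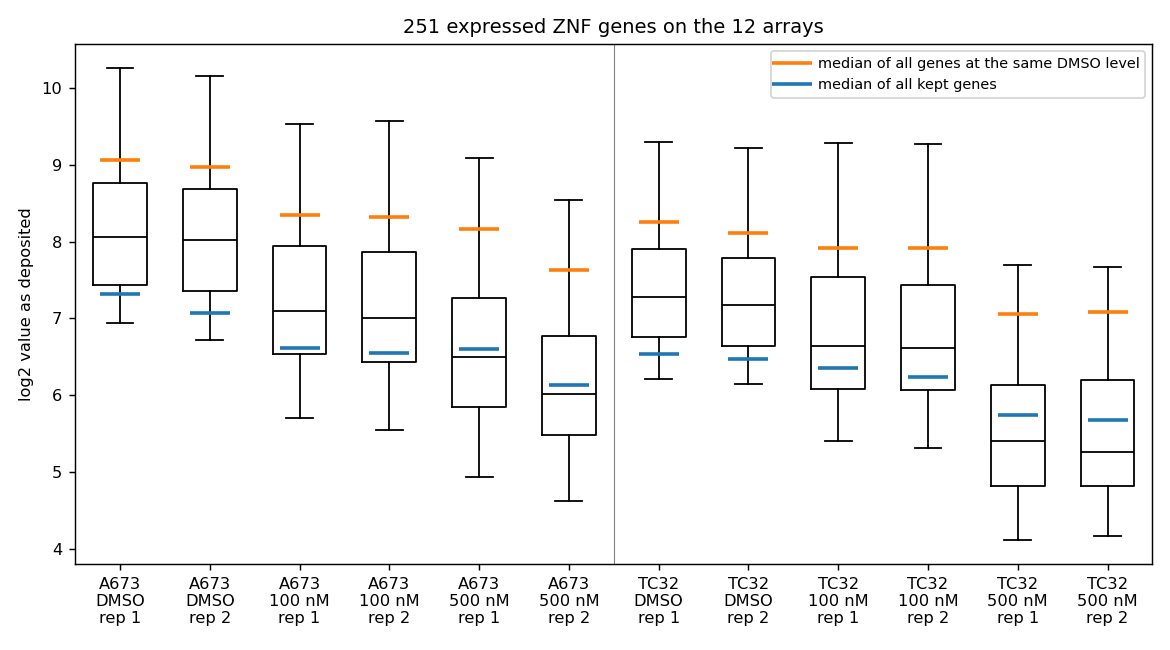
Log2 values of the 251 ZNF genes on each of the 12 arrays (vertical axis, values as deposited); boxes span the quartiles with the median as a line, and whiskers run between the 5th and 95th percentiles. Coloured bars give the medians of all kept genes and of all genes at the same DMSO level (a DMSO mean of at least 6.5). The ZNF median lay above that of all kept genes on the DMSO and 100 nM arrays and below it on all 4 arrays at 500 nM.

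At 500 nM nearly all tested ZNF genes were lower than in DMSO. On the deposited scale 216 of 227 fell in A673 and 211 of 227 in TC32, and 0 rose in either line by limma, also at an unadjusted p under 0.05; over all tested genes 82.5% fell and 0.946% rose in A673, and 62.9% fell and 0.946% rose in TC32. The median member changed by -1.65 in A673 and -1.75 in TC32, where the median tested gene changed by -0.73 and -0.64. Relative to the array medians, 160 members fell and 13 rose in A673, with 27.4% of all tested genes falling and 29.6% rising. In TC32, 175 fell and 16 rose, where 30.8% of all tested genes fell and 41.3% rose. The median relative change was -0.82 in A673 and -0.96 in TC32, against 0.10 and 0.15 for all tested genes. Among the 9239 tested genes at the same DMSO level, 30.1% fell relative to the array medians in A673 and 33.6% in TC32. The members' shares, 70.5% and 77.1%, were larger in both lines, but those genes share the threshold only and were not matched to the members in level.

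The DMSO arrays also chose the members, and a gene picked for high values on them would be somewhat lower on any other arrays. When the genes were instead chosen by the DMSO arrays of the other line alone, 192 of 200 fell in A673 with a median of -1.75, and 216 of 239 fell in TC32 with a median of -1.69. These were 96.0% and 90.4%, where 82.5% and 62.9% of all tested genes fell, and 86.7% and 67.5% of those at the same DMSO level. The genes at the same DMSO level were still chosen by all 4 DMSO arrays, so these last shares rest on a different choice. On the relative scale 149 and 177 of these genes fell, beside 27.4% and 30.8% of all tested genes. Over all 251 members, both 500 nM arrays lay below both DMSO arrays for 239 in A673 (95.2%) and 245 in TC32 (97.6%) as deposited, and no member had both above. All kept genes had this separation in 66.8% and 75.1% of cases, and those at the same DMSO level in 86.9% and 90.7%. Relative to the array medians it held for 187 members in A673 (74.5%) and 208 in TC32 (82.9%), against 21.9% and 24.4% of all kept genes and 37.4% and 41.1% of those at the same DMSO level. The DMSO arrays that chose the members enter all these counts. A member with a DMSO mean of at least 6.5 can only miss the testing level when its treated arrays are lower, so the 24 untested members are described and support nothing. Their median differences were -2.25 in A673 and -2.15 in TC32. Among them were ZNF43, a KRAB gene of chromosome 19 that averaged 3.54 at 500 nM and 6.86 with DMSO in A673, and ZNF117, which averaged 6.10 and 6.88 there.

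Most members were lower in both lines. On the deposited scale 208 of the 227 tested members fell in both and 8 in neither, where 60.1% of all tested genes fell in both and 14.6% in neither. On the relative scale 153 fell in both, 45 in neither, and 10 rose in both, against 23.7%, 65.5% and 25.1% of all tested genes. As shares of the members the relative counts were 67.4%, 19.8% and 4.41%. Across the 227 members the relative changes in A673 and TC32 had a Spearman correlation of 0.88, and across all tested genes it was 0.85. The arrays of the lines are separate, but genes are not independent replicates.

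**Figure D2:**
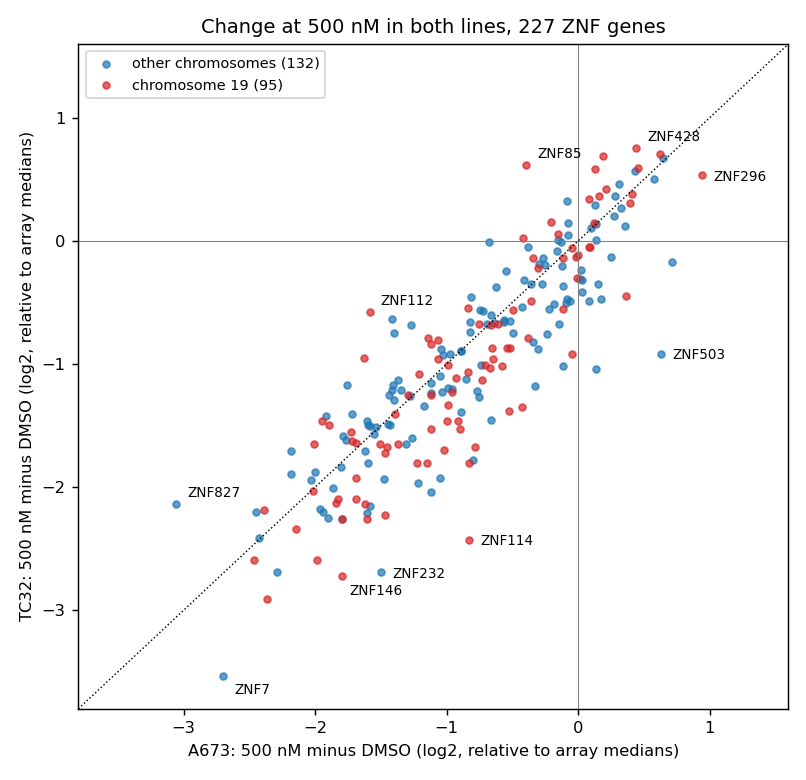
Change at 500 nM against DMSO of the 227 tested ZNF genes, in log2 units relative to the array medians, in A673 (horizontal) and TC32 (vertical), with the dotted line marking equal change. Red points are genes on chromosome 19 and blue points genes elsewhere; points of both colours are intermixed, and ZNF7 has the lowest value in TC32.

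Among the genes with the lowest differences of 500 nM from DMSO, ZNF827 recruits the NuRD complex to telomeres. In A673 it had 8.27 and 8.35 under DMSO, 6.43 and 6.11 under 100 nM and 4.45 and 4.39 under 500 nM. In TC32 the values were 7.87 and 7.78, 5.87 and 5.82, and 4.84 and 4.94 in the same order. No 2 groups of a line overlapped, and the differences of 500 nM from DMSO were -3.89 (SE 0.22) in A673 and -2.93 (SE 0.22) in TC32 as deposited, with adjusted p = 5.83e-13 and 8.29e-11 on the relative scale. ZNF7, a KRAB gene on chromosome 8, had 6.67 and 5.88 at 500 nM in A673, against 9.83 and 9.77 with DMSO, and 4.60 and 4.34 in TC32, against 8.95 and 8.65 with DMSO. Its difference in TC32, -4.33 (SE 0.21), as deposited, had adjusted p = 2.9e-15 on the relative scale. The others were ZNF766, ZNF684, ZNF627, ZNF160 and ZNF140 in A673, with differences between -3.30 and -3.02, and ZNF160, ZNF140, ZNF45, ZNF766 and ZNF114 in TC32, with differences between -3.70 and -3.22. ZNF200 in A673 (-3.26) and ZNF232, a SCAN domain gene, in TC32 (-3.48) completed them. Their arrays at 500 nM lay below both DMSO arrays of the line, as the choice of these genes required.

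ZNF146, a protein made almost only of zinc fingers, was the most abundant member with so large a change. It had 11.58 and 11.75 under DMSO, 10.94 and 10.95 under 100 nM and 9.36 and 8.71 under 500 nM in A673. In TC32 it had 10.35 and 10.52, 9.87 and 10.07, and 6.78 and 7.07. The drop was larger between 100 and 500 nM than between DMSO and 100 nM in both lines. Relative to the array medians the 500 nM difference from DMSO was -1.79 in A673 (adjusted p = 1.02e-09) and -2.72 in TC32 (adjusted p = 9.84e-13).

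At the other end no member rose on the deposited scale, and a few had differences near 0 while the array medians dropped. ZNF428 had 9.08 and 9.28 in TC32 at 500 nM, against 9.24 and 9.20 with DMSO, and its groups overlapped. Its difference was -0.04 (SE 0.20, adjusted p = 0.88 as deposited), and on the relative scale it was 0.76 (adjusted p = 1.22e-05). ZNF296 had 7.33 and 6.47 in A673 at 500 nM, against 6.95 and 6.62 with DMSO, a difference of 0.11 (SE 0.21) as deposited and 0.94 on the relative scale (adjusted p = 9.05e-06). The other members with the highest differences were ZNF354C, ZNF517 and ZNF503 in A673 (between -0.20 and -0.12 as deposited) and ZNF28, ZNF121 and ZNF517 in TC32 (between -0.12 and -0.09). Of ZNF503 in A673 the 6 arrays lay between 4.62 and 5.05, so that a decrease could hardly have been seen there. A change called on the relative scale alone depends on the centring and is no measure of more transcript.

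At 100 nM fewer members were called. In A673, 176 of 227 fell and 0 rose by limma on the deposited scale, with 0 rising at an unadjusted p under 0.05 too, with 58.7% of all tested genes falling and 1.31% rising. In TC32, 96 fell and 9 rose, with backgrounds of 20.9% and 5.56%. Relative to the array medians 89 fell and 28 rose in A673 (17.1% and 24.4% of all tested genes), and 93 fell and 48 rose in TC32 (21.2% and 30.6%). The count of 96 in TC32 was 56 without the first DMSO array of that line, and the 9 rising members were 23 without either A673 500 nM array and 2 to 4 without any single DMSO or 100 nM array of TC32. Median relative changes were -0.21 in A673 and -0.24 in TC32, against 0.10 and 0.13 for all tested genes. Both 100 nM arrays lay below both DMSO arrays for 230 of the 251 members in A673 (91.6%) and 168 in TC32 (66.9%) as deposited, against 74.2% and 34.4% of all kept genes. Among genes at the same DMSO level the shares were 89.5% and 47.9%, so that the share in A673 was near its background. Relative to the array medians the counts were 145 and 140, against 18.1% and 21.2% of all kept genes.

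No DMSO array enters the differences of 500 nM from 100 nM. The comparison is still not fully free of the arrays that chose the members. They count in the mean over all arrays that set which members were tested, and in the variance of the model. In A673, 132 of 227 members were lower and 1 higher at 500 nM on the deposited scale, where 26.7% of all tested genes were lower and 0.897% higher. In TC32, 197 were lower and 1 higher, against 55.5% and 1.09%. Relative to the array medians 131 were lower and 11 higher in A673 (25.1% and 10.4% of all tested genes), and 148 were lower and 13 higher in TC32 (29.8% and 29.1%). The median relative difference was -0.57 in A673 and -0.59 in TC32, against 0.02 and 0.07 for all tested genes. The single member higher on the deposited scale was ZNF573 in both lines. In A673 the count of 1 was 0 without the second 100 nM or the first 500 nM array and 5 without the second 500 nM array, and the relative count of 11 was 4, 5 and 8 without these arrays in the same order.

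**Figure D3:**
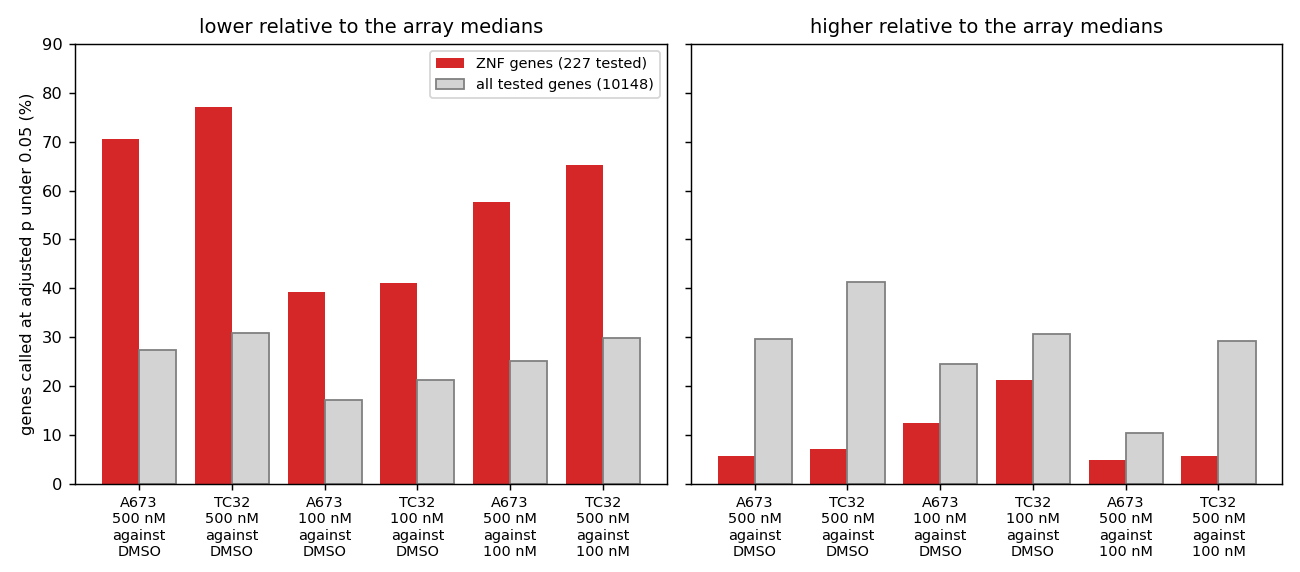
Share of the 227 tested ZNF genes (red) and of all 10148 tested genes (grey) called lower (left panel) and higher (right panel) in 6 comparisons, in percent, relative to the array medians. In each comparison a larger share of ZNF genes than of all genes was lower, and a smaller share was higher.

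The steps of dose separated the members into several patterns on the relative scale. In A673, 49 members were lower at 100 nM than with DMSO and lower again at 500 nM than at 100 nM, 82 were lower at 500 than at 100 nM without being lower at 100 nM, 32 were lower at 100 nM with no call between the doses, and 8 were lower at 100 nM and higher at 500 nM than at 100 nM. In TC32 these counts were 53, 95, 30 and 10. Over all tested genes the shares were 6.03%, 19.1%, 7.87% and 3.18% in A673 and 6.23%, 23.6%, 6.86% and 8.11% in TC32, in the same order, where the members' shares were 21.6%, 36.1%, 14.1% and 3.52%, and 23.3%, 41.9%, 13.2% and 4.41%. The order of the patterns depends on the scale. As deposited, the first 3 patterns held 100, 32 and 75 members in A673 and 75, 122 and 20 in TC32. In A673 these were 44.1%, 14.1% and 33% of the members, against 14.5%, 12.2% and 43.7% of all tested genes. In TC32 they were 33%, 53.7% and 8.81%, against 10.7%, 44.8% and 9.55%. The second pattern was the most frequent in TC32 and the least frequent of the 3 in A673, among all tested genes as among members. Its share in A673, and that of the third in TC32, were near the background.

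ZNF184, a KRAB gene on chromosome 6, had the lowest difference between the doses in both lines. In A673 it had 8.66 and 8.73 under DMSO, 8.76 and 8.85 under 100 nM and 6.5 and 6.01 under 500 nM. In TC32 it had 7.28 and 7.26, 7.88 and 7.86, and 4.17 and 4.36. The 100 nM arrays thus lay above the DMSO arrays and the 500 nM arrays below them. The differences of 500 from 100 nM were -2.54 (SE 0.21, relative -2.33, adjusted p = 2.94e-11) in A673 and -3.60 (SE 0.21, relative -3.01, adjusted p = 1.21e-13) in TC32. ZNF217, a component of CtBP corepressor complexes that is amplified in breast cancer, had 9.08 and 9.43, 9.08 and 9.01, and 6.69 and 6.56 in A673, and 9.15 and 9.06, 9.22 and 9.34, and 5.76 and 6.35 in TC32, in order of dose. Its 100 nM arrays lay close to the DMSO arrays, below them in A673 and above them in TC32, and the 500 nM arrays stood far below both, with relative differences of 500 from 100 nM of -2.21 (adjusted p = 2.47e-09) in A673 and -2.64 (adjusted p = 5.25e-11) in TC32. ZNF180 (-2.43) and ZNF670 (-2.29) in A673 and ZNF227 (-3.30) and ZNF7 (-3.26) in TC32 were the other lowest as deposited.

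ZNF573, a KRAB gene on chromosome 19, ran the other way between the doses. It had 7.14 and 6.86 under DMSO, 5.47 and 4.97 under 100 nM and 6.16 and 5.57 under 500 nM in A673, and 6.72 and 6.89, 5.09 and 5.07, and 5.78 and 5.82 in TC32. In both lines its 100 nM arrays were its lowest. It was higher at 500 than at 100 nM by 0.65 (SE 0.23, relative 0.86, adjusted p = 0.000124) in A673 and by 0.72 (SE 0.23, relative 1.31, adjusted p = 2.81e-07) in TC32. ZNF641, another KRAB gene, had 8.26 and 8.37 under DMSO, 6.15 and 6.14 under 100 nM and 6.66 and 6.24 under 500 nM in A673, and 7.55 and 7.09, 5.30 and 5.15, and 5.21 and 5.39 in TC32. Its 100 nM arrays lay far below the DMSO arrays, and the differences of 500 from 100 nM as deposited, 0.31 (SE 0.22) in A673 and 0.08 (SE 0.22) in TC32, did not pass the test. ZNF324 and ZNF85 in A673 (0.51 and 0.31) and ZNF397 and the pseudogene ZNF252P in TC32 (0.14 and -0.01) had the other highest differences, none past the test as deposited.

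**Figure D4:**
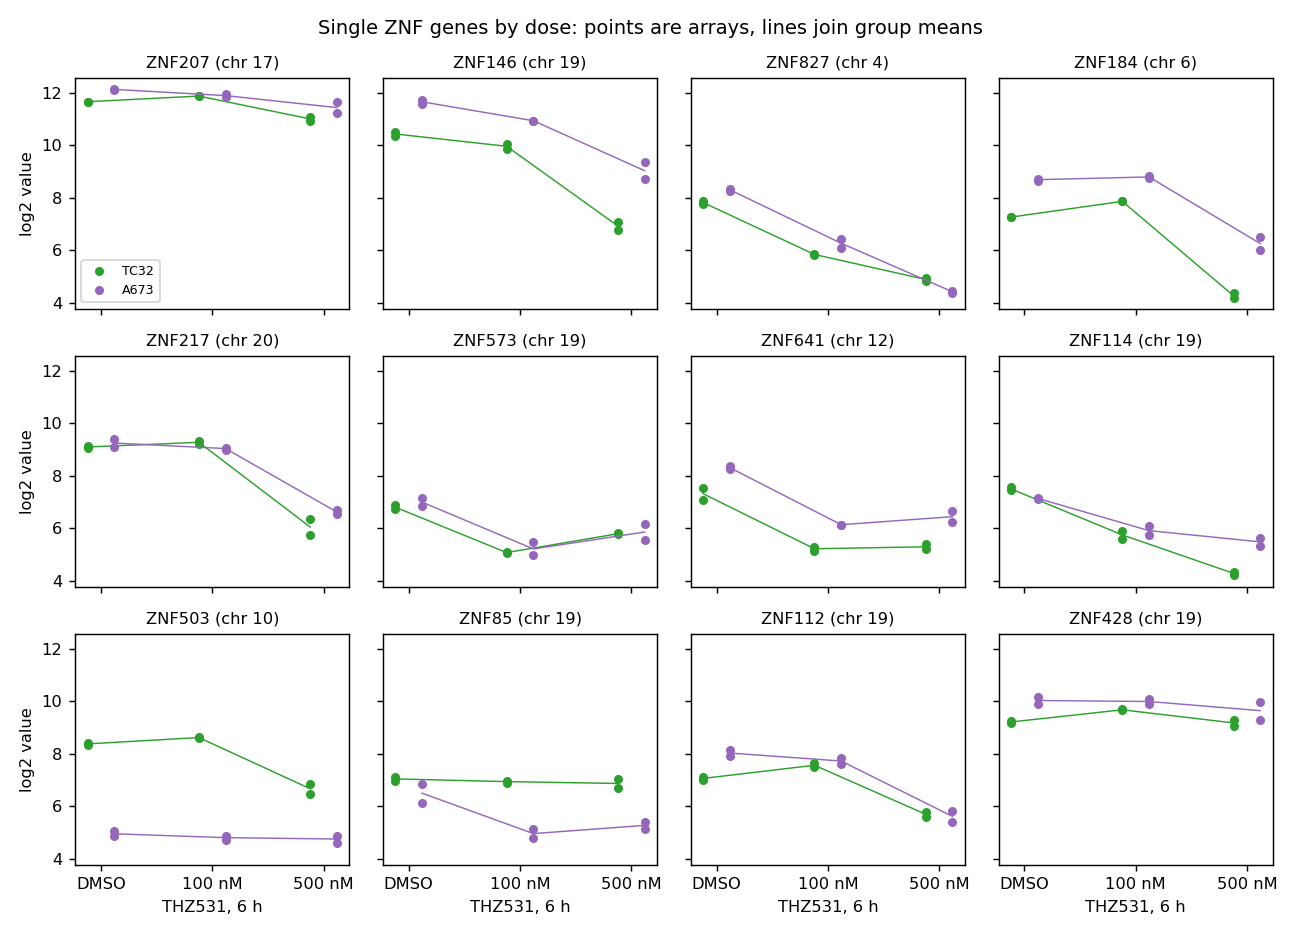
Log2 values as deposited of 12 ZNF genes by dose (horizontal axis, THZ531 for 6 h); green points are the arrays of TC32 and purple points those of A673, 2 in each group, and lines join group means. ZNF184 and ZNF217 drop between 100 and 500 nM, ZNF573 and ZNF641 between DMSO and 100 nM, and ZNF503 lies near 5 on all A673 arrays.

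The promoters of some of the genes named for low or high differences between the doses are printed to show what kind of start site they have. They are RefSeq windows of 300 bases (build GRCh38.p14), 250 before and 50 after the annotated start, read 5′ to 3′ on the gene's strand. Capitals mark matches to 8 motifs searched on both strands: TATAAA (called the TATA box), CCAAT (the box of that name), GGGCGG (called the GC box), CCGGAAG (a core bound by ETS factors), ACTACAA (part of the ZNF143 site), CACGTG (E-box), TGACGTCA (cAMP response element) and GATGGCG (part of the YY1 site), where matches may overlap. ZNF184 and ZNF227 had low and ZNF573 and ZNF641 high differences of 500 from 100 nM. ZNF227 was named among the lowest in TC32 only, and the differences of ZNF641 did not pass the test as deposited. ZNF217, named among the lowest in both lines, is not shown.
ZNF184 (chr6:27473056-27473355, minus strand): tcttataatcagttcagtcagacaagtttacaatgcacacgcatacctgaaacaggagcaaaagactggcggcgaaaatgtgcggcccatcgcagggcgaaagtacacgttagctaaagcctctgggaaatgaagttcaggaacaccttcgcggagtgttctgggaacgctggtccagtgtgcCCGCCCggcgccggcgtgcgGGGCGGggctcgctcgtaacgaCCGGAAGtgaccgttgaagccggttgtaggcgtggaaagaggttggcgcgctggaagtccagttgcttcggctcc
ZNF227 (chr19:44212282-44212581, plus strand): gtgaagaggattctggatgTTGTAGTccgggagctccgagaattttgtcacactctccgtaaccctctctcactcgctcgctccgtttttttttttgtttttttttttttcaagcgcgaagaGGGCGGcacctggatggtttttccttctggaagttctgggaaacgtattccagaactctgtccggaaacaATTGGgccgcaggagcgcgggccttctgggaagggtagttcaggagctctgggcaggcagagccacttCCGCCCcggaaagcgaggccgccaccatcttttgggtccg
ZNF573 (chr19:37779537-37779836, minus strand): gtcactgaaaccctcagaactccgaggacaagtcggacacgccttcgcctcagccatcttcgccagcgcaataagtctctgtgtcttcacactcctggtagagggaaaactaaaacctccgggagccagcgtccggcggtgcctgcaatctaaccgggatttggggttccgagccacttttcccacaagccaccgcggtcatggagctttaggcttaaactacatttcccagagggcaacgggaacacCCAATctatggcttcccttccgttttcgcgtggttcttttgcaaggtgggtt
ZNF641 (chr12:48350870-48351169, minus strand): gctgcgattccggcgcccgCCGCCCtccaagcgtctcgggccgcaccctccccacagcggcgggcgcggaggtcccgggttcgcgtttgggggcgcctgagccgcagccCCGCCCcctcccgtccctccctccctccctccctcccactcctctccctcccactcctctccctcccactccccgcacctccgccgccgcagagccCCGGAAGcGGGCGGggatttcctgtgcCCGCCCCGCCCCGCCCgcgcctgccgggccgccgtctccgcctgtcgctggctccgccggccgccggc
ZNF184 held an ETS core and 2 GC boxes, ZNF227 a ZNF143 core, 2 GC boxes and a CCAAT box, ZNF573 a CCAAT box alone, and ZNF641 an ETS core and 6 GC boxes. None of the 4 held the TATA box letters.

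Windows were found for 216 of the 251 members. The ETS core was in 84 of them (38.9%), against 20.6% of the 7823 windows of genes at the same DMSO level and 10.3% of all 35116 windows. The GC box was in 68.5%, against 71.8% and 45.0%. CCAAT was in 44.9% of member windows, against 37.5% and 34.6%, and the ZNF143 core in 6.94%, against 4.09% and 2.77%. Shares were 5.56% for the cAMP response element, against 3.49% and 1.85%, and 8.33% for the YY1 core, against 8.31% and 4.20%. Less frequent than among genes of the same level were the TATA box, at 2.31% against 5.34% (11.5% of all windows), and the E-box, at 5.56% against 10.7% (7.26% of all windows). A match describes letters and is no evidence of binding. The 76 tested members with an ETS core had median relative differences of 500 nM from DMSO of -1.02 in A673 and -1.14 in TC32. The 117 without it had -0.80 and -0.89. The gap in A673 was wider for the ZNF143 core (-1.268 with it, -0.826 without), but reversed in TC32 (-0.802 and -1.004). For the GC box the medians were -0.962 and -0.686 in A673, and -1.004 and -0.98 in TC32. Members with an E-box changed less, with -0.698 against -0.851 in A673 and -0.778 against -1.004 in TC32. None of these splits was tested, so they do not single out the ETS core.

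At 500 nM the median difference of chromosome 19 members from DMSO was -1.67 in A673 and -1.81 in TC32, against -1.62 and -1.69 for members elsewhere. The differences between these medians, -0.05 and -0.12, were -0.29 and -0.39 when members were chosen at a DMSO level of 7.5. Of the 95 tested members on chromosome 19, 70 fell relative to the array medians in A673 and 71 in TC32, and of the 132 elsewhere 90 and 104 fell. On that scale 7 and 11 of the chromosome 19 members rose, and 6 and 5 of those elsewhere. Of all tested genes 27.4% fell and 29.6% rose in A673, and 30.8% fell and 41.3% rose in TC32. The 545 other tested genes of chromosome 19 at the same DMSO level had medians of -0.60 and -0.49, and 77 and 120 of them fell relative to the array medians. Chromosome 19 members were of lower level, and on each of the 12 arrays their median was 0.46 to 0.61 below that of the other members. Along chromosome 19, neighbouring members differed in their 500 nM change by a median of 0.73 in A673 and 0.86 in TC32 (94 neighbour pairs), while all 4465 pairs on the chromosome differed by 0.79 and 0.91.

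The members' median gene span was 22.9 kb, against 28.4 kb over all tested genes. In A673 the median change at 500 nM was -1.33 for the 69 members under 15 kb, -1.88 for the 101 of 15 to 40 kb and -1.65 for the 57 of 40 kb or more. All tested genes in these bins had medians of -0.59, -0.75 and -0.86. In TC32 the members had -1.58, -1.96 and -1.47, and all tested genes -0.49, -0.70 and -0.72. In each bin the members' median was below that of all genes, and the Spearman correlation of change with span was -0.15 in A673 and 0.00 in TC32, while across all tested genes it was -0.23 and -0.11. The span gives the length of the gene in the annotation and not of the transcript measured.

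By role, with differences of single genes on the relative scale unless stated, the transcription factors of promoters came first: all 8 tested members were lower at 500 nM as deposited, where 82.5% and 62.9% of all tested genes were in A673 and TC32. Of these, 7 in A673 and 6 in TC32 fell on the relative scale, beside 27.4% and 30.8% of all tested genes. ZNF143, which binds many promoters, had 6.19 and 5.62 at 500 nM in A673, against 8.03 and 7.99 with DMSO, and 4.83 and 5.10 in TC32, against 6.98 and 7.04 with DMSO. Its relative differences were -1.28 (adjusted p = 7.96e-08) and -1.26 (adjusted p = 6.83e-08). ZNF281, a regulator of stem cell genes, differed by -1.05 in A673 and -1.93 in TC32, and ZNF410, an activator of CHD4, by -1.26 and -1.60. ZNF76, the paralogue of ZNF143, had relative differences of -0.16 (adjusted p = 0.35) in A673 and -0.08 (adjusted p = 0.64) in TC32, where no change was called. ZNF131, ZNF740 and ZNF335 fell relative to the array medians in both lines, and ZNF148 in A673 (-0.68).

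Of the chromatin and corepressor proteins, all 11 tested were lower at 500 nM as deposited in both lines, and 7 fell on the relative scale in each (all tested genes: 82.5% and 62.9% as deposited, 27.4% and 30.8% relative, in A673 and TC32). ZNF644, a partner of the methyltransferases EHMT1 and EHMT2, had relative differences of -2.03 in A673 (adjusted p = 1.08e-11) and -1.94 in TC32 (adjusted p = 1.23e-11). ZNF280C (-2.19 and -1.89), ZNF609 (-1.76 and -1.62) and ZNF451, a SUMO ligase (-1.55 and -1.57), fell with ZNF217 and ZNF827 in both lines. ZNF592 (-0.15 and 0.01), ZNF512 (-0.07 and 0.15) and ZNF219 (-0.08 and 0.05) were not called on that scale. ZNF532, which like ZNF592 joins ZMYND8 complexes, fell by 0.30 in A673 (adjusted p = 0.026) and was not called in TC32 (-0.19), while ZNF512B fell in TC32 (-0.67) and was not called in A673 (-0.15). ZNF518A, below the testing level, averaged 4.70 at 500 nM and 6.96 with DMSO in A673, and 4.19 and 6.44 in TC32.

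The KRAB and SCAN proteins with known targets had 10 tested members, of which 10 were lower in A673 and 9 in TC32 as deposited, and 8 and 9 on the relative scale, beside the same shares of all tested genes, 82.5% and 62.9%, and 27.4% and 30.8%. ZNF85, the remaining one in TC32, rose there on the relative scale (0.62, adjusted p = 0.0018). ZNF445, a guardian of imprinted loci, had 5.81 and 5.74 at 500 nM in A673, against 8.63 and 8.39 with DMSO, and 5.03 and 4.87 in TC32, against 8.10 and 7.88 with DMSO. ZNF274, which brings SETDB1 to the 3′ ends of ZNF genes themselves, had 5.87 and 5.64 in A673, against 8.52 and 8.33, and 4.87 and 4.62 in TC32, against 7.77 and 7.55. Both genes were far below DMSO in each line, with relative differences of -1.90 and -2.25 for ZNF445 and -1.84 and -2.12 for ZNF274. Among repressors of LINE elements, ZNF93 differed by -0.99 in A673 and -1.0 in TC32, and ZNF649 and ZNF765 by -1.69 each in A673 and by -1.64 and -2.10 in TC32. ZNF91, which represses SVA elements, fell in TC32 (-0.55, adjusted p = 0.0027) and differed by -0.11 in A673 (adjusted p = 0.52). ZNF10, source of the KRAB domain used in artificial repressors, differed by -0.89 in both lines.

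Of the RNA, ribosome and spindle proteins, all 13 tested were lower at 500 nM as deposited in both lines, and 5 fell in A673 and 12 in TC32 on the relative scale. Of all tested genes 82.5% and 62.9% were lower as deposited and 27.4% and 30.8% on the relative scale, so the 5 of 13 in A673 lie near the background. ZNF207, a spindle and kinetochore protein and the most abundant member, had 11.64 and 11.24 at 500 nM in A673, against 12.12 and 12.15 with DMSO, and 10.92 and 11.10 in TC32, against 11.67 and 11.66 with DMSO. Its 500 nM arrays lay below the DMSO arrays, but its relative differences, 0.14 in both lines, were not called. ZNF638 (-1.40 and -1.29) and ZNF346 (-1.79 and -1.59), both RNA-binding proteins, fell in both lines. ZNF622, of ribosome assembly, differed by -0.11 in A673 (adjusted p = 0.51) and -1.01 in TC32 (adjusted p = 3.17e-06), and ZNF598, which marks collided ribosomes, by -0.06 and -0.48 (adjusted p = 0.66 and 0.001). Outside that list, ZNF664, the second most abundant member, rose relative to the array medians by 0.31 in A673 and 0.46 in TC32 while it differed by -0.52 and -0.33 as deposited. In the list, ZNF326, part of a complex that links splicing to elongation, differed by 0.09 in A673 and -0.48 in TC32.

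**Figure D5:**
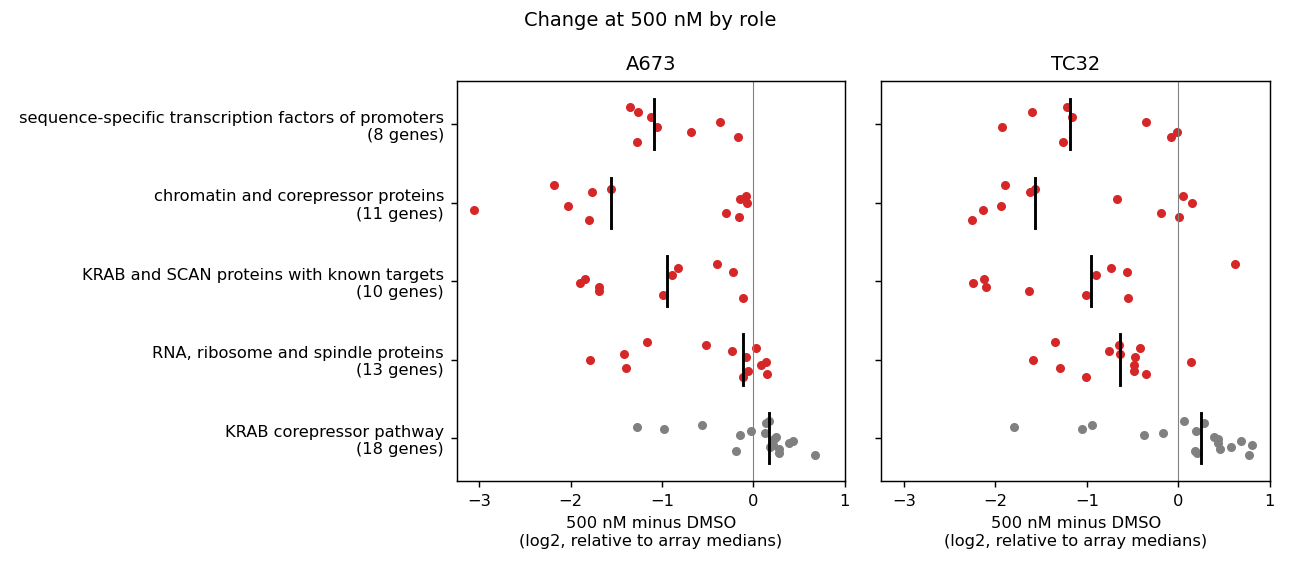
Change at 500 nM against DMSO in log2 units relative to the array medians, for tested ZNF genes of 4 roles (red) and for 18 genes of the KRAB corepressor pathway (grey), in A673 (left) and TC32 (right); points are genes and black bars medians. The medians of the ZNF lists lie left of 0 and those of the corepressor genes, 0.18 and 0.25, right of it.

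The proteins through which KRAB genes act had median relative changes of 0.18 in A673 and 0.25 in TC32, near the 0.10 and 0.15 of all tested genes. Of 21 corepressor pathway genes 18 were tested, and 17 were lower in A673 and 11 in TC32 at 500 nM as deposited. On the relative scale 3 fell and 4 rose in A673, and 4 fell and 9 rose in TC32. As deposited the share that was lower lay above the 82.5% of all tested genes in A673 and near the 62.9% in TC32. On the relative scale 27.4% of all tested genes fell and 29.6% rose in A673, and 30.8% fell and 41.3% rose in TC32. The shares of the 18 that fell were below these, which was not tested. TRIM28, the partner of the KRAB domain, differed by -0.15 in A673 and -0.02 in TC32 as deposited, and neither difference passed the test. Its relative differences were 0.68 (adjusted p = 0.00015) and 0.77 (adjusted p = 2.3e-05). SETDB1 differed by -0.55 and -0.59 as deposited and by 0.28 and 0.21 on the relative scale, where it was not called. The lowest were the histone methyltransferase SUV39H1 (-2.11 and -2.59 as deposited), MORC2 of the HUSH pathway (-1.80 and -1.85) and the methyltransferase EHMT1 (-1.39 and -1.73). The 2 kinases that THZ531 inhibits fell as well, with differences of -1.48 and -1.25 for CDK12 and -2.65 and -2.05 for CDK13 as deposited.

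Other zinc finger families at the same DMSO level are set beside the ZNF medians of -1.65 in A673 and -1.75 in TC32. The 26 ZBTB genes changed by -1.68 in A673 and -1.60 in TC32, the 9 ZFP genes by -1.63 and -2.04, and the 5 ZSCAN genes by -1.57 and -1.45. The 3 ZKSCAN genes changed by -2.13 and -1.75. On the relative scale 22 ZBTB genes fell in A673 and 21 in TC32, where 27.4% and 30.8% of all tested genes fell. The markers of other cell types that were tested, 8 in number, had medians of -0.39 and -0.31 as deposited, with 3 lower in A673 and 0 in TC32. On the relative scale their medians were 0.44 and 0.48. There 6 of them rose in A673 and 8 in TC32, beside 29.6% and 41.3% of all tested genes.

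Between the lines the 500 nM effect differed for 6 members on the deposited scale. Of the 227 tested, 4 (1.76%) had a lower and 2 (0.881%) a higher difference in TC32 than in A673. Over all tested genes 1.28% and 0.552% did, so the members' shares were near the background. On the relative scale 26 were lower (11.5%) and 7 higher (3.08%) in TC32, against 6.75% and 3.04% of all tested genes. ZNF114, a KRAB gene, had 4.24 and 4.34 in TC32 at 500 nM against 7.57 and 7.45 with DMSO, and 5.64 and 5.33 in A673 at 500 nM against 7.17 and 7.12 with DMSO. The TC32 minus A673 difference of its effect was -1.56 (SE 0.32, relative adjusted p = 3.31e-05). ZNF503, a developmental corepressor, had 6.49 and 6.86 in TC32 at 500 nM against 8.41 and 8.36 with DMSO, and 4.89 and 4.62 in A673 against 5.05 and 4.86. The difference of -1.51 (SE 0.31) thus set a decrease in TC32 beside a low level in A673. ZNF232 (-1.16) and ZNF263 (-1.13) were also lower in TC32. ZNF263, with a SCAN and a KRAB domain, had 6.52 and 6.86 in TC32 at 500 nM against 8.64 and 8.41, and 8.77 and 8.33 in A673 against 9.28 and 9.22.

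In the other direction, ZNF85 had 7.05 and 6.70 in TC32 at 500 nM against 7.11 and 6.99 with DMSO, and 5.41 and 5.15 in A673 against 6.86 and 6.15. The TC32 minus A673 difference of its effect was 1.05 (SE 0.31, relative adjusted p = 0.0054). ZNF112 differed between the lines by 1.05 (SE 0.30, relative adjusted p = 0.0025), with a decrease in both. ZNF827 (0.95) and ZNF277 (0.82) did not pass the test as deposited and did on the relative scale. These counts rest on single arrays: without the first A673 500 nM array 10 members were lower and 24 higher in TC32, and without the second 46 were lower and 2 higher. On the relative scale 47 were lower without the second A673 DMSO array and 16 without the first TC32 DMSO array, and 4 to 8 were higher without any single array. Over the tested genes the second A673 500 nM array differed from the first by a median of -0.52.

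The lines also differed under DMSO, which is given as a description because these arrays chose the members. ZNF503 averaged 8.39 in TC32 and 4.96 in A673, and ZNF354C 7.25 and 5.88. ZNF706, a small zinc finger protein, averaged 10.88 in TC32 and 9.89 in A673, and ZNF804A 7.22 and 6.33. Higher in A673 were ZNF697, at 6.25 in TC32 and 8.06 in A673, ZNF480, at 6.81 and 8.54, ZNF512, at 9.07 and 10.61, and ZNF551, at 6.69 and 8.21. The median TC32 minus A673 difference over the members was -0.85 as deposited and -0.15 on the relative scale.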

How the data were processed

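The deposited table holds log2 values of biotin-labelled total RNA, 1 column per sample, and the authors' normalisation is not given in the sources used here. MAS5, GRCh37 and hg19 are named, without roles, in the submitters' processing notes. External RNA controls were added, per the labels, and whether arrays were scaled to them is not known. Of 49395 probe sets, 44994 with 1 gene in the platform annotation were considered. Entries with 2 decimals (2829) were left out, as were 116 genes sharing values with another symbol. Chromosomes and promoters are RefSeq's (GRCh38.p14).

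The 12 arrays were fitted with limma 3.58.1 (R 4.3.3), 1 mean per group, variances following the mean, two-sided tests and Benjamini-Hochberg adjustment over 10148 genes with a mean at or above the 40th percentile (5.94). The fit was tested on simulated data. As deposited, the prior degrees of freedom were infinite; after centring they were 15.8, with 6 residual. The number of arrays limits the precision. Replicates are biological replicates per the labels, and the p-values rest on the spread among them. As deposited, that spread is pooled over genes of similar mean, so a gene's own replicates carry no weight. The median residual SD was 0.189, and 0.112 without either A673 500 nM array, where the prior degrees of freedom were 14.2 and 14.1. The offset between these 2 arrays thus enters the deposited p-values of both lines. Replicate numbers only share a number and did not pair samples. Named genes were, per line, the 8 lowest and 4 highest differences at 500 nM, the 4 lowest and highest between doses and between lines, the 5 most abundant, DMSO differences between lines, and the role lists. Members, lists and rules were chosen with earlier results of these data known. Python 3.11.15 and pandas 2.3.3 prepared tables.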

Additional observations from a re-analysis of the deposited data

Results flagged for a closer look

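The 500 nM effect differed between TC32 and A673 for 6 members by the interaction term of limma on the deposited scale. In TC32 4 of the 227 tested were lower (1.76%) and 2 higher (0.881%). Of all tested genes 1.28% were lower and 0.552% higher, so the members' shares were near the background. The TC32 minus A673 differences were -1.56 for ZNF114, -1.51 for ZNF503, -1.16 for ZNF232 and -1.13 for ZNF263, and 1.05 for each of ZNF85 and ZNF112. For ZNF503 the A673 arrays were near 5 at every dose, and for ZNF85 the TC32 arrays at 500 nM overlapped those with DMSO. The second A673 array at 500 nM differed from the first by a median of -0.52 over the tested genes, and the part of this offset in these counts was not tested.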

How the results depend on the processing

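The deposited log2 values and the number of arrays limit these results, and signal over background was not given. With centring, 13 members rose at 500 nM in A673 and 16 in TC32, 28 and 48 at 100 nM, and 11 and 13 between the doses, where 0, 0, 0, 9, 1 and 1 rose as deposited. With it 89 fell at 100 nM in A673, and 26 and 7 differed between the lines downwards and upwards in TC32. Median changes with centring were -0.82 and -0.96 at 500 nM, -0.21 and -0.24 at 100 nM, and -0.57 and -0.59 between the doses, in A673 and TC32. Testing only genes above the 60th percentile, which tests fewer members, left 80 and 77 falling at 500 nM, 57 and 21 at 100 nM, 50 and 74 lower between the doses with 0 higher, and 1 lower and 0 higher between the lines. With no filter, 239 and 232 of all 251 members fell at 500 nM, 197 and 107 at 100 nM, and 148 and 214 between the doses, with 2 higher in each line. With centring and no filter, chosen after seeing the data, 182 and 198 fell at 500 nM. A DMSO level of 7.5, which keeps fewer members, left 139 and 136 falling at 500 nM, 111 in A673 at 100 nM, 127 lower between the doses in TC32, 0 higher between the doses in either line, and 2 lower and 1 higher between the lines. At that level the medians were -1.92 and -2.02 at 500 nM and -1.50 between the doses in TC32, and chromosome 19 members differed from the others by -0.29 and -0.39 at 500 nM, -0.16 in A673 at 100 nM, and -0.12 and -0.20 between the doses. Without a variance trend 2 members were higher between the doses in A673.

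Leaving out 1 array at a time gave 200 to 224 falling and 0 to 1 rising at 500 nM in A673, and 202 to 216 and 0 in TC32. At 100 nM it gave 133 to 196 falling and 0 to 1 rising in A673, and 56 to 121 and 2 to 23 in TC32. Between the doses it gave 113 to 180 lower and 0 to 5 higher in A673, and 169 to 206 and 1 in TC32. Between the lines it gave 2 to 46 lower and 0 to 24 higher. Medians ran between -1.87 and -1.45 (A673) and -1.85 and -1.69 (TC32) at 500 nM, between -0.90 and -0.77 and between -0.47 and -0.36 at 100 nM, between -0.98 and -0.53 and between -1.24 and -1.11 between the doses, and between -0.30 and 0.16 between the lines. Chromosome 19 members minus the others ran between -0.11 and -0.046 and between -0.20 and -0.059 at 500 nM, between -0.11 and -0.037 and between -0.026 and 0.051 at 100 nM, between -0.14 and 0.015 and between -0.15 and -0.063 between the doses, and between -0.13 and -0.069 between the lines. Leave-one-out runs on the relative scale were added after seeing the data, and there 7 members rose at 500 nM in A673 without its first 500 nM array, 18 at 100 nM in A673 without its second 100 nM array and 31 at 100 nM in TC32 without its second DMSO array. The A673 medians at the ends of the ranges at 500 nM and between the doses are those without 1 of its 500 nM arrays. Beyond the fewer genes or arrays, the cause of these moves was not tested.

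Same-numbered replicates did not pair: correlations of their deviations ran between -0.16 and 0.24. With the replicate number as a block, 11 members were lower in TC32 than in A673 in place of 4, and 2 were higher between the doses in A673 in place of 1; other counts stayed within 1.5 times. KRAB-like stretches and zinc finger patterns were not run, since protein sequences were not used here.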
